A study of Mus musculus with 12 samples.

Results

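The genes described here are 46 mouse genes of the endoplasmic reticulum (ER) stress response and the integrated stress response, measured by their mRNA. The list is one of gene symbols, drawn up with earlier results of these data known. Every probe set whose single gene symbol in the platform annotation is one of the 46 was taken. This gave 105 probe sets of the 34945 on the array that carry 1 symbol. Of these 105, 98 were above the filter on low signal, and all 46 genes were among the 12280 genes tested. By role they were 14 ER chaperones and folding enzymes, 7 genes of ER-associated degradation, 7 sensors, eIF2alpha kinases and phosphatase subunits, 9 regulators of the Atf4 type, and 9 genes of amino acid supply and one-carbon metabolism.

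Mouse embryonic stem cells of the lines HM1 and CAG150 were differentiated towards neurons and sampled at day 4 and day 6, with 3 Affymetrix arrays in each of the 4 groups and 12 in all. HM1 is a male line without functional Hprt. CAG150 carries expanded CAG repeats per the series title; from general knowledge of the study these lie in Htt, the gene of Huntington's disease. There was 1 line of each kind, so an effect of the repeats and any other difference between these lines cannot be told apart. Group and replicate follow the sample titles here, since the free-text descriptions conflict with them: those of HM1 day 6 name day 4, and every day 6 sample is numbered as the first replicate. Nothing in the labels says that the 3 samples of a group came from separate cultures, so the p-values measure the spread between these samples, which may be technical. The Htt intensity at day 4 was 152 ± 12.6 for HM1 and 105 ± 9.70 for CAG150 (adjusted p = 0.0157), and at day 6 it was 132 ± 22.1 and 65.1 ± 6.52 (adjusted p = 0.000268).

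Levels below are intensities on the linear scale of the deposited table, given as the values of replicates 1, 2 and 3 in that order or as mean ± SD of 3 arrays. A log2 difference is given with its SE, is on the log2(intensity + 16) scale, and comes from 1 limma fit over all 12 arrays. Folds are taken from it and understate the change of dim genes. The test was passed where p, after Benjamini-Hochberg adjustment over the whole set of tested genes, was below 0.05. Each gene is represented by its brightest probe set unless another is named, and intensities of different genes are not comparable as levels. Array medians ran from 19.2 to 25.9, and the 3′ to 5′ signal ratio of Gapdh from 0.744 to 0.839 and of actin from 1.38 to 1.88.

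When unfolded proteins build up in the ER, the sensors Ern1 (IRE1), Eif2ak3 (PERK) and Atf6 start the unfolded protein response. Ern1 splices the mRNA of Xbp1, and the spliced Xbp1 and the released part of Atf6 raise transcription of ER chaperones and of degradation genes. Eif2ak3 phosphorylates the translation factor eIF2alpha, as does Eif2ak4 (GCN2) when amino acids run short, and this lowers general translation while the Atf4 protein is made. Atf4 then raises genes that import and make amino acids, together with Atf3, Ddit3 (CHOP), Trib3 and Chac1, and Ppp1r15a brings the phosphatase back to eIF2alpha. Phosphorylation, splicing and protein levels were not measured here.

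Some promoters of the chaperones and some of the amino acid response genes hold different motifs, so the stretches around the motifs are given first. RefSeq windows (GRCm38.p6) from 250 bases before to 50 bases after the start site were at hand for 39 of the 46 genes, and were searched on both strands. The ER stress element, CCAAT and CCACG with 9 bases between them, occurred in 39 of all 32851 promoter windows (0.119%) and in 7 of the 12 chaperone genes with a window. It occurred in 2 of 6 genes of ER-associated degradation and in none of the 5 sensor and kinase genes, the 9 regulators of the Atf4 type or the 7 amino acid supply genes. In the lines below, the stretch is written 5′ to 3′ on the strand that holds the motif, and capitals mark its fixed letters.
Hspa5: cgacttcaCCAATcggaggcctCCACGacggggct
Hsp90b1: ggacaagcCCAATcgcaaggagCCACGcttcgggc
Hsp90b1: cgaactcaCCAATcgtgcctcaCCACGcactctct
Calr: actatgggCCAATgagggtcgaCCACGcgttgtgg
Canx: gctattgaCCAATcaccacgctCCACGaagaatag
Pdia6: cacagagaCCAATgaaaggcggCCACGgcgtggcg
Dnajc3: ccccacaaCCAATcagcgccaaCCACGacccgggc
Creld2: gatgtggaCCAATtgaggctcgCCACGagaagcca
Derl3: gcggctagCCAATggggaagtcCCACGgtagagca
Syvn1: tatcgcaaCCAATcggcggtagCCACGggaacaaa

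These stretches lie at chr2:34772017-34772051, chr10:86705630-86705664 and chr10:86705525-86705559, chr8:84847067-84847101, chr11:50325792-50325826, chr12:17266483-17266517, chr14:118937819-118937853, chr15:88819512-88819546, chr10:75893234-75893268 and chr19:6046524-6046558, in the order above; the gene is on the minus strand for Hsp90b1, Calr and Canx and on the plus strand for the others. With the first transcribed base as 0, the motif of Hspa5 runs from -65 to -47 and that of Syvn1 from -44 to -26, the closest of the set, and Hsp90b1 holds the motif at 2 places. The related element ERSE-II, ATTGG and CCACG with 1 base between them, was found in 12 of the 32851 windows (0.037%), among them those of Dnajb11 (chr16:22857844-22857870) and Herpud1 (chr8:94386369-94386395), both on the plus strand. The core letters TGACGTGG of the element bound by Xbp1 in other work occurred in 222 windows (0.676%) and in none of the 39 genes.
Dnajb11: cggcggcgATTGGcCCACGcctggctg
Herpud1: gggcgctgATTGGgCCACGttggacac

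The amino acid response element, searched as TGATGNAA, was found in 1304 of the 32851 windows (3.969%). It was in 4 of the 9 regulators of the Atf4 type (Atf3, Chac1, Nupr1 and Trib3), in 1 of the 7 amino acid supply genes (Asns), in Herpud1, and in none of the 12 chaperones. Herpud1 was the 1 gene of the 39 with both kinds of motif.
Asns: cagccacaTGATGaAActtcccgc
Chac1: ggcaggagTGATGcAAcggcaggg
Atf3: ggacttggTGATGcAAgtgcgaga
Trib3: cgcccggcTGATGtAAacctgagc
Nupr1: gccctgtcTGATGcAAtctggccc
Herpud1: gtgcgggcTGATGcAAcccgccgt

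They lie at chr6:7693217-7693240, chr2:119351041-119351064, chr1:191183428-191183451, chr2:152344031-152344054, chr7:126625565-126625588 and chr8:94386309-94386332, with Asns, Atf3, Trib3 and Nupr1 on the minus strand. The 250 bases before the start site are shown for 1 chaperone and 2 amino acid response genes, picked with their values known because they stand for the patterns below, Hspa5 (chr2:34771840-34772089, plus strand), Chac1 (chr2:119350992-119351241, plus strand) and Asns (chr6:7693210-7693459, minus strand). They are written on the strand of the gene, so that the motif of Chac1, which is on the other strand, reads TTgCATCA; capitals mark the same motifs as above. A match describes letters in these windows and says nothing of binding in these cells.
Hspa5: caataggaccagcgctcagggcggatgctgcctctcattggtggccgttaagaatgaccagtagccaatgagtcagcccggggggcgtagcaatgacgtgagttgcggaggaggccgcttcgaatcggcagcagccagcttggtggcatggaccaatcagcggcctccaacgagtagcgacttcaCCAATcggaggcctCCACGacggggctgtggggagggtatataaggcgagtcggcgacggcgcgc
Chac1: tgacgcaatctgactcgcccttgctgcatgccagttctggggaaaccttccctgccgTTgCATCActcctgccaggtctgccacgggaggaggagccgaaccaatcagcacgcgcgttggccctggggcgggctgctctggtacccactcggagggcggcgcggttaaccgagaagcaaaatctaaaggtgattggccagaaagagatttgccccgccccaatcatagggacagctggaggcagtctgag
Asns: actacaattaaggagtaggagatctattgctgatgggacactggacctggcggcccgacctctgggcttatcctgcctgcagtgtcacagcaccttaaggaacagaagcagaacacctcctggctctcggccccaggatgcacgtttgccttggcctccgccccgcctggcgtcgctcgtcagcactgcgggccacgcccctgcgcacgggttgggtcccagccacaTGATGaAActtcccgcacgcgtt

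At day 4 the genes that differed between the lines were mostly chaperones lower in CAG150. At day 6 most of the amino acid response genes were lower in CAG150 as well. Of the 46 genes, 3 were higher and 7 lower in CAG150 at day 4, where 7.87% of all genes tested were higher and 7.92% lower. At day 6, 3 were higher and 19 lower, against 10.1% and 11.2% of all genes tested. The median log2 difference of the 46 was -0.18 at day 4 and -0.25 at day 6, beside 0.01 and 0.00 over all genes tested. From day 4 to day 6, 5 rose and 19 fell in HM1 (20.4% and 18.5% of all genes tested), and 5 rose and 20 fell in CAG150 (22.5% and 21.9%). The interaction, which tests whether the difference between the lines changed from day 4 to day 6, was passed by 6 of the 46, 1 positive and 5 negative, where 1.58% of all genes were positive and 2.03% negative. Comparisons that use the same arrays are not independent, so their values are given side by side. With each array centred on its median, 0 of the 46 were higher and 9 lower at day 4, and with only the 6 day 4 arrays in the fit the split was also 0 and 9. Without CAG150 day 4 replicate 3 the day 4 count was 6, none of them higher.

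**Figure D1:**
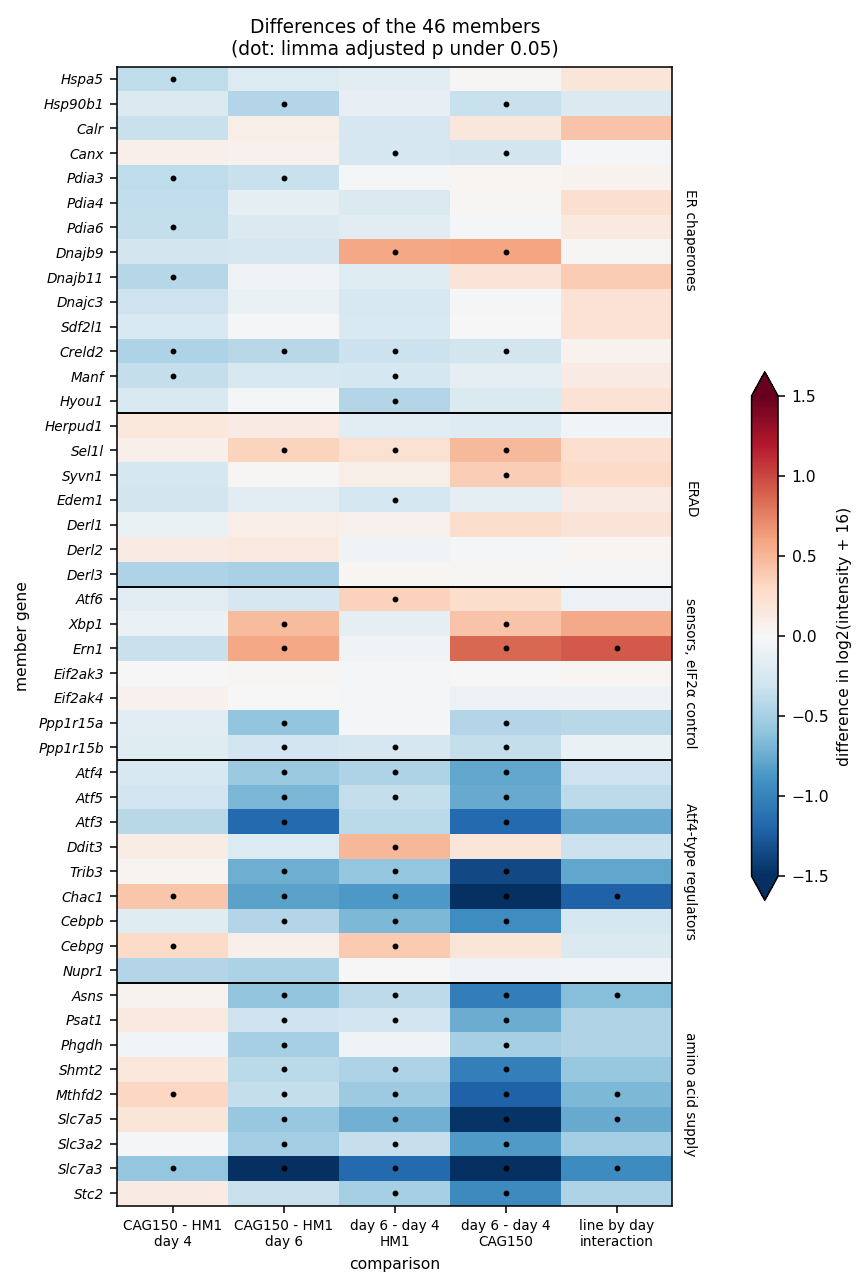
Log2 differences of the 46 genes (rows, grouped by role) in the 5 comparisons (columns), with colours held at 1.5 in either direction and a dot where the adjusted p was under 0.05. The chaperones are mostly negative in the day 4 column, and most Atf4-type regulators and amino acid supply genes are negative in the day 6 column and in the day comparison of CAG150.

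Among the ER chaperones and folding enzymes, 6 of 14 were lower in CAG150 at day 4 and none was higher. The shares over all genes tested were 7.92% and 7.87%. The difference was negative for 13 of the 14, with a median of -0.35. Hspa5, the main Hsp70 chaperone of the ER lumen (BiP), read 5764, 5779 and 5144 in HM1 and 4261, 4534 and 4027 in CAG150. The groups of Hspa5 did not overlap, with CAG150 1.30-fold lower (-0.38 ± 0.09, adjusted p = 0.0117). Creld2, an ER stress-induced protein that assists disulphide exchange, read 556, 607 and 554 in HM1 and 408, 451 and 377 in CAG150, 1.38-fold lower without overlap (-0.46 ± 0.09, adjusted p = 0.00393). Dnajb11, a J-domain co-chaperone of Hspa5, read 422, 492 and 472 in HM1 and 311, 347 and 357 in CAG150, again with every CAG150 array below every HM1 array (-0.43 ± 0.09, adjusted p = 0.00483). The protein disulphide isomerases Pdia6 and Pdia3 catalyse the formation of disulphide bonds. Pdia6 read 1682, 1604 and 1561 in HM1 and 1211, 1251 and 1296 in CAG150 (-0.36 ± 0.08, adjusted p = 0.00827). Pdia3 read 3259, 3369 and 3165 and 2585, 2691 and 2238 (-0.38 ± 0.09, adjusted p = 0.016). Manf, a secreted ER stress protein, read 2160.4, 2324 and 2164 in HM1 and 1653, 1757 and 1754 in CAG150 (-0.36 ± 0.08, adjusted p = 0.00866). All 6 differences were between 1.28-fold and 1.38-fold. Of these 6, Hspa5, Pdia6 and Creld2 have the element of the lines above, Dnajb11 the related one, Pdia3 neither, and Manf was not in the promoter table. Calr, Canx, Dnajc3 and Hsp90b1 have the element too and did not pass at day 4. Pdia3 did not pass without HM1 day 4 replicate 2 or CAG150 day 4 replicate 3 (adjusted p 0.0517 to 0.0659), nor with quantile normalization (-0.30, adjusted p = 0.0587). Neither Pdia3 nor Pdia6 passed with the mean of their probe sets (Pdia3 -0.25, adjusted p = 0.233; Pdia6 -0.19, adjusted p = 0.192), where the other probe set is dim. That of Pdia6 gave 0.56 at day 6 (adjusted p = 0.0217 over all probe sets), of opposite sign to its main one. The other 8 had differences from -0.37 (Pdia4) to 0.08 (Canx) and did not pass. Dnajc3, which inhibits Eif2ak3, was nearest with -0.31 ± 0.10, adjusted p = 0.05.

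At day 6 the chaperones lower in CAG150 were Hsp90b1, Creld2 and Pdia3, 3 of 14, with none higher and a median of -0.17. Among all genes tested, 11.2% were lower and 10.1% higher. Hsp90b1, the Hsp90 of the ER (GRP94), read 3149, 2819 and 3146 in HM1 and 2179.8, 2202 and 2311 in CAG150, with no overlap (1.36-fold lower, -0.44 ± 0.10, adjusted p = 0.00701). Its second probe set gave -0.10 (adjusted p = 0.628 over all probe sets). Creld2 read 451, 424 and 486 in HM1 and 324, 339 and 345 in CAG150 (-0.41 ± 0.09, adjusted p = 0.00551), so that its CAG150 arrays were lower on both days. Pdia3 read 3459, 3362 and 2878 and 2601, 2575 and 2495 (-0.33 ± 0.09, adjusted p = 0.0254). This call was lost without CAG150 day 6 replicates 1, 2 or 3 or HM1 day 6 replicates 1 or 2 (adjusted p 0.0536 to 0.093). It was also lost with quantile normalization (-0.28, adjusted p = 0.0523), with centring on genes off chromosomes 8, 11, X and Y (-0.29, adjusted p = 0.0568) and with the mean of its probe sets (-0.12, adjusted p = 0.581). For Hspa5 the day 6 values were 5019, 5109.6 and 4817 in HM1 and 4222, 4728 and 4075 in CAG150 (-0.20 ± 0.09, adjusted p = 0.13), which did not overlap but did not pass. The second brightest probe set of Hspa5 gave -0.33 at day 4 (adjusted p = 0.0274) and -0.29 at day 6 (adjusted p = 0.039). The day 6 means of Dnajb11 were 404 ± 13.1 for HM1 and 389 ± 16.5 for CAG150 (-0.05 ± 0.09, adjusted p = 0.712), where the groups overlapped. The count of 3 was 6 with a pseudocount of 64. In the interaction 0 of the 14 chaperones passed limma's test, 2 of them with an unadjusted p under 0.05. The interaction was positive for 12 of the 14, with a median of 0.16 beside -0.01 over all genes tested. A change of the line difference between the days was thus not shown for any single chaperone. Without HM1 day 4 replicate 3, 1 passed.

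From day 4 to day 6, 1 of the 14 chaperones rose and 4 fell in HM1, where 20.4% of all genes tested rose and 18.5% fell. Their median there was -0.22, and 13 of the 14 differences were negative. In CAG150, 1 rose and 3 fell, where 22.5% of all genes tested rose and 21.9% fell. The median there was -0.01, with 8 of the 14 negative. The riser was Dnajb9 in both lines, the ER J-protein ERdj4 that binds Ern1. It went from 368, 368 and 369 to 532, 585 and 563 in HM1 (0.58 ± 0.09, adjusted p = 0.000371). In CAG150 it went from 299, 287 and 323 to 516, 406 and 481 (0.60 ± 0.09, adjusted p = 0.000235), and in neither line did the days overlap. Canx, the lectin chaperone calnexin, fell from 4065 ± 251 to 3401 ± 173 in HM1 (-0.26 ± 0.08, adjusted p = 0.0197) and from 4284 ± 51.2 to 3542 ± 72.3 in CAG150 (-0.27 ± 0.08, adjusted p = 0.0122). Its dimmest probe set gave a difference of opposite sign in both lines. Creld2 fell in both lines as well (-0.33 ± 0.09, adjusted p = 0.0112 in HM1; -0.28 ± 0.09, adjusted p = 0.0224 in CAG150). Hyou1, the large Hsp110-type chaperone of the ER, fell in HM1 from 562, 748 and 599 to 487, 478 and 419 (-0.44 ± 0.11, adjusted p = 0.00834) and Manf fell there by 0.26 (adjusted p = 0.0209). Hsp90b1 fell in CAG150 (-0.34 ± 0.10, adjusted p = 0.0148). Several of these calls were lost when a single array was left out. Canx in HM1 was lost without HM1 day 4 replicates 1 or 2 or HM1 day 6 replicates 2 or 3 (adjusted p 0.0518 to 0.0684). It was also lost with quantile normalization (-0.13, adjusted p = 0.176) and with only the arrays compared (-0.26, adjusted p = 0.0676). With the mean of its probe sets Canx passed in neither line (-0.12, adjusted p = 0.41 in HM1; -0.10, adjusted p = 0.459 in CAG150). Manf was lost without HM1 day 4 replicate 2 or HM1 day 6 replicates 1 or 2 (adjusted p 0.0546 to 0.0883). The same held with quantile normalization (-0.18, adjusted p = 0.0707) and with only the arrays compared (-0.26, adjusted p = 0.0655). Hsp90b1 in CAG150 was lost without CAG150 day 4 replicates 1 or 2 (adjusted p 0.059 to 0.065). It was also lost with quantile normalization (-0.26, adjusted p = 0.0523) and with the mean of its probe sets (-0.21, adjusted p = 0.0704). Creld2 was lost without CAG150 day 4 replicate 2 or CAG150 day 6 replicate 1 (adjusted p 0.0693 to 0.101). The count of 4 falls in HM1 was 2 with quantile normalization, with only the arrays compared, without HM1 day 4 replicate 2 and without HM1 day 6 replicate 2. It was 9 with arrays centred on their medians and 8 with centring on genes off chromosomes 8, 11, X and Y. The count of 3 falls in CAG150 was 1 without CAG150 day 4 replicate 2 and with the mean of probe sets. Calr, Pdia4, Sdf2l1 and Pdia6 passed in neither line over time. Pdia4 and Sdf2l1 had 1 high HM1 array at day 4, 604 and 406 on replicate 2 beside 347 and 367 for Pdia4 and 236 and 270.2 for Sdf2l1.

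**Figure D2:**
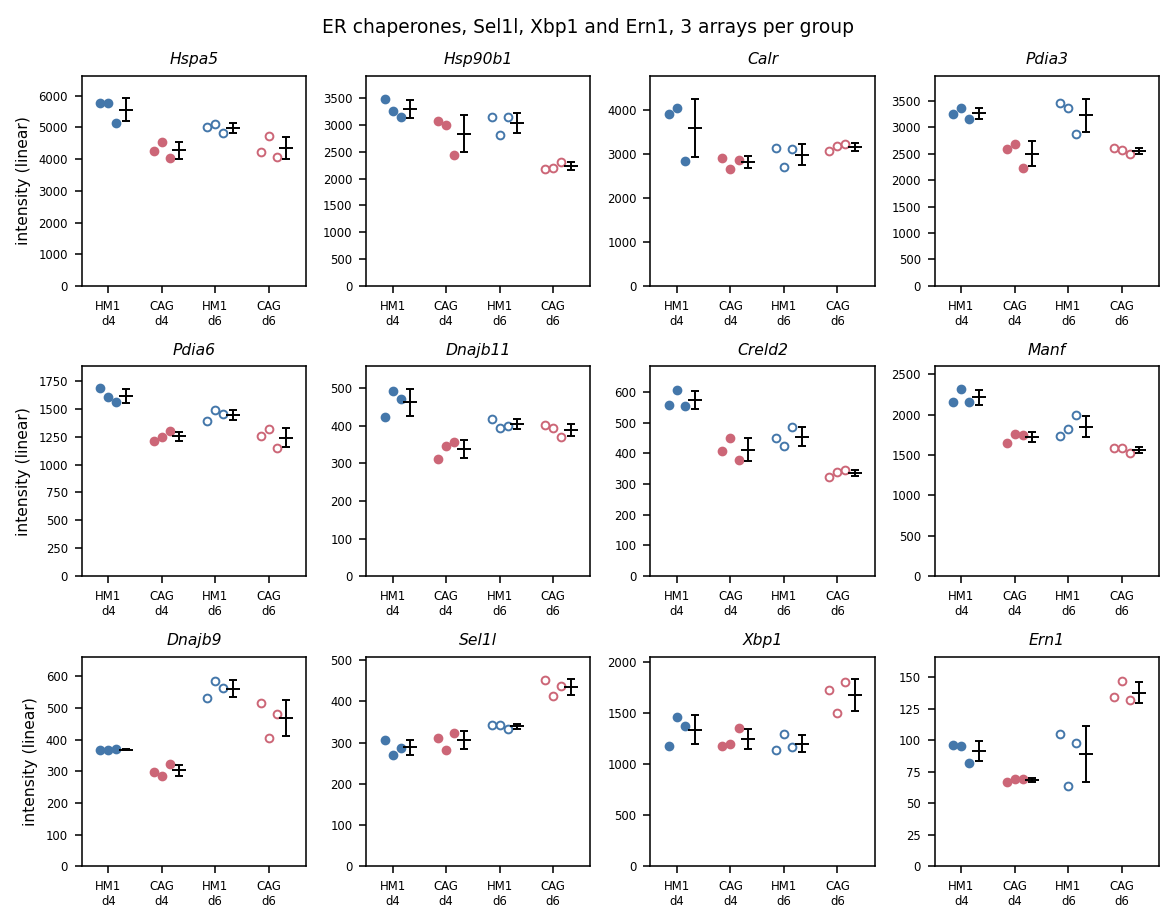
Intensities (linear axis from 0) of 12 ER genes on each array, with HM1 and CAG150 side by side, filled points for day 4, open points for day 6, and bars for the mean ± SD of 3 arrays. The CAG150 points of Hspa5, Creld2, Dnajb11, Pdia6 and Manf lie below the HM1 points at day 4, and the CAG150 points of Xbp1, Sel1l and Ern1 lie above them at day 6.

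Genes of ER-associated degradation return misfolded proteins to the cytosol for the proteasome. At day 4, 0 of 7 passed limma's test between the lines and 1 had an unadjusted p under 0.05. Of all genes tested, 7.87% were higher and 7.92% lower at day 4, and 10.1% and 11.2% at day 6. At day 6, 1 was higher in CAG150, Sel1l, the scaffold of the ligase complex. Sel1l read 343, 344 and 333 in HM1 and 452, 413 and 436 in CAG150 at day 6, with no overlap (1.26-fold higher, 0.34 ± 0.08, adjusted p = 0.0116). At day 4 it read 307, 271 and 287 and 312, 281 and 324, which overlapped. It rose with time in CAG150 (0.49 ± 0.08, adjusted p = 0.000422) and in HM1 (0.23 ± 0.08, adjusted p = 0.044). The day 6 difference of Sel1l did not pass with arrays centred on their medians (0.28, adjusted p = 0.051) or with the mean of its 5 probe sets (0.21, adjusted p = 0.198). The CAG150 rise did not pass with that mean (0.28, adjusted p = 0.0614). The HM1 rise was lost without any of 8 arrays (HM1 day 4 replicates 2 or 3 or CAG150 day 4 replicate 1 or CAG150 day 6 replicates 1 or 3 or HM1 day 6 replicates 1, 2 or 3 (adjusted p 0.0506 to 0.131)). The same held under 5 other settings, where its value ran from 0.12 to 0.23. Another probe set of Sel1l was higher in CAG150 at day 4 (0.47, adjusted p = 0.0454 over all probe sets) and rose in HM1 (0.48, adjusted p = 0.0182). Syvn1, the Hrd1 ubiquitin ligase, rose in CAG150 from 202, 212 and 273 to 266, 279 and 356 (0.37 ± 0.14, adjusted p = 0.041), but the days overlapped. The call was lost without HM1 day 4 replicate 3 or CAG150 day 4 replicates 1 or 2 or CAG150 day 6 replicates 2 or 3 or HM1 day 6 replicate 2 (adjusted p 0.0507 to 0.174) and under 6 other settings. The second probe set of Syvn1 was lower in CAG150 at day 4 (-0.37, adjusted p = 0.0388 over all probe sets) and rose there by 0.29 (adjusted p = 0.0431). Edem1, which hands mannose-trimmed glycoproteins to degradation, fell in HM1 from 306, 263 and 295 to 233, 229 and 245 (-0.27 ± 0.09, adjusted p = 0.0372). This was lost without HM1 day 4 replicates 1 or 3 or HM1 day 6 replicates 1, 2 or 3 (adjusted p 0.0543 to 0.116). It was also lost with no filter (-0.27, adjusted p = 0.0652), with only the arrays compared (-0.27, adjusted p = 0.0567) and with the replicate number as a block (-0.27, adjusted p = 0.0557). With the probe sets used, Herpud1, Derl1 and Derl2 passed in no comparison, with line differences from -0.09 to 0.16 at day 4 and from 0.10 to 0.15 at day 6. The second probe set of Herpud1 fell with time in CAG150, by 0.41 (adjusted p = 0.0076 over all probe sets), beside -0.19 with the one used. The dimmest of the 4 of Derl1 rose there by 0.41 (adjusted p = 0.0141), beside 0.27. Derl3 was dim, at 27.6 ± 6.04, 17.1 ± 13.6, 28.6 ± 6.66 and 16.1 ± 7.02 in HM1 and CAG150 at day 4 and then at day 6, and passed in none. In the interaction 0 of 7 passed, 1 with an unadjusted p under 0.05.

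The sensors and kinases gave a mixed picture, with Xbp1 and Ern1 higher in CAG150 at day 6 and both phosphatase subunits lower. Xbp1, the transcription factor activated through splicing by Ern1, read 1140.2, 1292 and 1172 in HM1 and 1725, 1501 and 1799 in CAG150 at day 6 (1.39-fold higher, 0.47 ± 0.11, adjusted p = 0.00721). The groups did not overlap at day 6, whereas at day 4 they did, at 1181, 1464 and 1369.9 and 1182, 1192 and 1356. Xbp1 rose with time in CAG150 (0.42 ± 0.11, adjusted p = 0.00596; with arrays centred on their medians 0.32, adjusted p = 0.0526), and the interaction was 0.57 ± 0.15, adjusted p = 0.0561, which did not pass. Of its 4 probe sets, 3 gave day 6 differences of 0.47, 0.51 and 0.38, and the dimmest gave -0.16; the arrays do not separate the spliced from the unspliced mRNA here. Ern1 read 96.3, 95.4 and 82.3 in HM1 and 67.1, 69.4 and 69.6 in CAG150 at day 4, and 105, 63.6 and 98.2 and 134, 147 and 132 at day 6. It was 1.49-fold higher in CAG150 at day 6 (0.57 ± 0.13, adjusted p = 0.00869) and rose there from day 4 (0.86 ± 0.13, adjusted p = 0.000212), with an interaction of 0.91 ± 0.19, adjusted p = 0.0191. The probe sets of Ern1 differ from each other. The second brightest was higher in CAG150 on both days, by 0.43 at day 4 (adjusted p = 0.0264 over all probe sets) and 0.63 at day 6 (adjusted p = 0.00249), with an interaction of 0.20 (adjusted p = 0.669). The third gave 0.21 at day 4 (adjusted p = 0.401), -0.01 at day 6 (adjusted p = 0.967) and an interaction of -0.22 (adjusted p = 0.732). With the mean of its probe sets neither the interaction (0.20, adjusted p = 0.515) nor the day 6 difference (0.26, adjusted p = 0.055) passed.

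Eif2ak3 and Eif2ak4 passed in none of the 5 comparisons, and their group means were close together. Eif2ak3 read 158 ± 11.4 and 157 ± 8.96 in HM1 and CAG150 at day 4 and 155 ± 4.04 and 157 ± 1.99 at day 6, with line differences of -0.01 ± 0.08 and 0.02 ± 0.08. Eif2ak4 read 163 ± 22.6, 172 ± 29.5, 161 ± 15.9 and 160.0 ± 19.7 in the same order. Ppp1r15a (GADD34), the stress-induced subunit that directs phosphatase to eIF2alpha, read 133, 119 and 169 in HM1 and 77.5, 109 and 77.8 in CAG150 at day 6 (1.5-fold lower, -0.59 ± 0.15, adjusted p = 0.0143). It fell with time in CAG150 (-0.44 ± 0.15, adjusted p = 0.0308). Ppp1r15b (CReP), its constitutive counterpart, read 633, 608 and 653 and 506, 533 and 506 at day 6 (-0.29 ± 0.08, adjusted p = 0.0192). It fell with time in HM1 (-0.25 ± 0.08, adjusted p = 0.0195) and in CAG150 (-0.35 ± 0.08, adjusted p = 0.00236). A second, dimmer probe set of Ppp1r15b went the other way in all 4 comparisons, and with the mean of both no difference passed. The HM1 difference was then 0.02, of opposite sign. The day 6 call of Ppp1r15a was lost without CAG150 day 6 replicates 1 or 3 or HM1 day 6 replicate 3 (adjusted p 0.0575 to 0.0623). That of Ppp1r15b was lost without CAG150 day 6 replicates 1 or 3 or HM1 day 6 replicates 1 or 3 (adjusted p 0.0522 to 0.0691). The CAG150 fall of Ppp1r15a was lost without CAG150 day 4 replicates 2 or 3 or CAG150 day 6 replicates 1 or 3 (adjusted p 0.0807 to 0.115) and with no filter (-0.44, adjusted p = 0.0521). The HM1 fall of Ppp1r15b was lost without HM1 day 4 replicate 1 or HM1 day 6 replicate 2 (adjusted p 0.0643 to 0.0687). Atf6 rose in HM1 from 71.2, 68.4 and 63.5 to 93.6, 104 and 74.9 (0.34 ± 0.12, adjusted p = 0.0422). This was lost without HM1 day 4 replicates 1, 2 or 3 or CAG150 day 4 replicate 1 or HM1 day 6 replicates 1 or 2 (adjusted p 0.0512 to 0.156) and under 8 other settings. At day 4, 0 of the 7 sensors, kinases and phosphatase subunits passed limma's test between the lines, 2 with an unadjusted p under 0.05.

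Most regulators of the Atf4 type were lower in CAG150 at day 6 and fell over time in both lines. At day 6, 6 of 9 were lower in CAG150 and none higher, beside 11.2% and 10.1% of all genes tested, with a median of -0.56. Atf4 itself, the transcription factor of the integrated stress response, read 1411, 1512 and 1556 in HM1 and 1009, 1068 and 955 in CAG150 (1.47-fold lower, -0.56 ± 0.09, adjusted p = 0.000755). Every CAG150 array at day 6 was below every other array of the series for Atf4. Its day 4 values were 1987, 2234 and 1988 in HM1 and 1617, 1858 and 1772 in CAG150 (-0.24 ± 0.09, adjusted p = 0.0848), which did not overlap but did not pass. Atf5, a related bZIP factor under the same translational control, read 178, 174 and 151 in HM1 and 85.0, 94.6 and 117 in CAG150 at day 6 (1.61-fold lower, -0.68 ± 0.10, adjusted p = 0.000587). Atf3, a stress-induced bZIP factor, read 91.4, 67.5 and 65.2 and 21.5, 24.8 and 26.1 (2.25-fold lower, -1.17 ± 0.20, adjusted p = 0.00116). Trib3, a pseudokinase that dampens Atf4, read 68.5, 45.7 and 52.1 in HM1 and 28.6, 18.2 and 34.1 in CAG150 (1.67-fold lower, -0.74 ± 0.17, adjusted p = 0.00781), and its second probe set gave -0.82 (adjusted p = 0.0113 over all probe sets). Atf3 and Trib3 were dim in CAG150 at day 6, where the pseudocount shrinks the fold. Cebpb, a bZIP partner of Atf4, read 47.0, 34.1 and 35.3 and 24.8, 28.4 and 20.01 (-0.44 ± 0.13, adjusted p = 0.0292). This call was lost without CAG150 day 6 replicates 1 or 3 or HM1 day 6 replicate 1 (adjusted p 0.0644 to 0.116). The same held with no filter (-0.44, adjusted p = 0.0517) and with a pseudocount of 64 (-0.22, adjusted p = 0.0639).

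Chac1, a glutathione-degrading enzyme induced by Atf4, was the gene of this group whose line difference turned over between the days. It read 256, 265 and 266 in HM1 and 298, 386 and 394 in CAG150 at day 4, 1.34-fold higher in CAG150 (0.42 ± 0.10, adjusted p = 0.017). At day 6 it read 131, 131 and 149.6 in HM1 and 68.3, 71.5 and 76.7 in CAG150, 1.74-fold lower in CAG150 (-0.80 ± 0.10, adjusted p = 0.000176). The groups overlapped on neither day, and the interaction was -1.22 ± 0.15, adjusted p = 0.000717. The day 4 difference is the less firm of the pair. It did not pass without HM1 day 4 replicate 1 or CAG150 day 4 replicates 2 or 3 (adjusted p 0.0503 to 0.0696), with arrays centred on their medians (0.36, adjusted p = 0.075) or with only the day 4 arrays (0.42, adjusted p = 0.0524). The day 6 difference and the interaction passed under every alternative. Cebpg, another partner of Atf4, was also higher in CAG150 at day 4, at 354, 367 and 388 in HM1 and 459, 445 and 462 in CAG150 (0.29 ± 0.07, adjusted p = 0.0185). At day 6 it did not pass (0.07 ± 0.07, adjusted p = 0.534). Its day 4 call was lost without HM1 day 4 replicate 1 or CAG150 day 4 replicates 1 or 3 (adjusted p 0.0545 to 0.0614). It was also lost with arrays centred on their medians (0.23, adjusted p = 0.122) and with only the day 4 arrays (0.29, adjusted p = 0.0643). Cebpg rose with time in HM1 (0.39 ± 0.07, adjusted p = 0.00109), as did Ddit3, the CHOP factor, from 74.3, 93.2 and 84.0 to 119, 113 and 145 (0.50 ± 0.10, adjusted p = 0.00224). In CAG150 Ddit3 went from 95.9, 92.9 and 86.9 to 109, 112 and 97.8 (0.18 ± 0.10, adjusted p = 0.183), and its line difference passed on neither day. Nupr1, a small stress-induced nuclear protein, has a pair of probe sets of nearly the same mean, and the brighter was dim, at 18.7 ± 2.71 and 9.71 ± 2.81 at day 4 and 19.1 ± 7.90 and 9.09 ± 4.61 at day 6 in HM1 and CAG150. With it Nupr1 passed in no comparison (-0.44 ± 0.17, adjusted p = 0.102 at day 4; -0.48 ± 0.17, adjusted p = 0.0621 at day 6), although the lines did not overlap on either day. The other probe set gave -0.79 at day 4 (adjusted p = 0.0166 over all probe sets) and -0.59 at day 6 (adjusted p = 0.0453).

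Over time, 2 of the 9 regulators rose and 5 fell in HM1 (median -0.41), and none rose and 6 fell in CAG150 (median -0.78). The shares over all genes tested were 20.4% and 18.5% in HM1 and 22.5% and 21.9% in CAG150. The count of 2 that rose is thus near the general share. Chac1 had the largest fall, 4.23-fold in CAG150 (-2.08 ± 0.10, adjusted p = 1.62e-08) and 1.82-fold in HM1 (-0.86 ± 0.10, adjusted p = 3.93e-05). Trib3 fell by 1.35 in CAG150 (adjusted p = 3.62e-05) and by 0.58 in HM1 (adjusted p = 0.016). Atf4 fell 1.72-fold in CAG150 (-0.78 ± 0.09, adjusted p = 1.62e-05) and 1.38-fold in HM1 (-0.47 ± 0.09, adjusted p = 0.00118). Atf3 fell in CAG150 (-1.16 ± 0.20, adjusted p = 0.000404). Replicate 1 at day 4 was below the others there, at 45.3 beside 104 and 82.0. Atf3 did not pass in HM1 (-0.41 ± 0.20, adjusted p = 0.122). All 9 interactions of this group were negative, with a median of -0.32, and Chac1 was the 1 that passed; without HM1 day 4 replicate 3 or CAG150 day 4 replicate 1 there were 2. In HM1 the fall of Atf5 was lost without HM1 day 4 replicate 3 or HM1 day 6 replicate 3 (adjusted p 0.0506 to 0.0699). That of Trib3 was lost without HM1 day 4 replicate 3 or HM1 day 6 replicate 2 (adjusted p 0.064 to 0.0717). This left 3 falls without HM1 day 4 replicate 3.

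**Figure D3:**
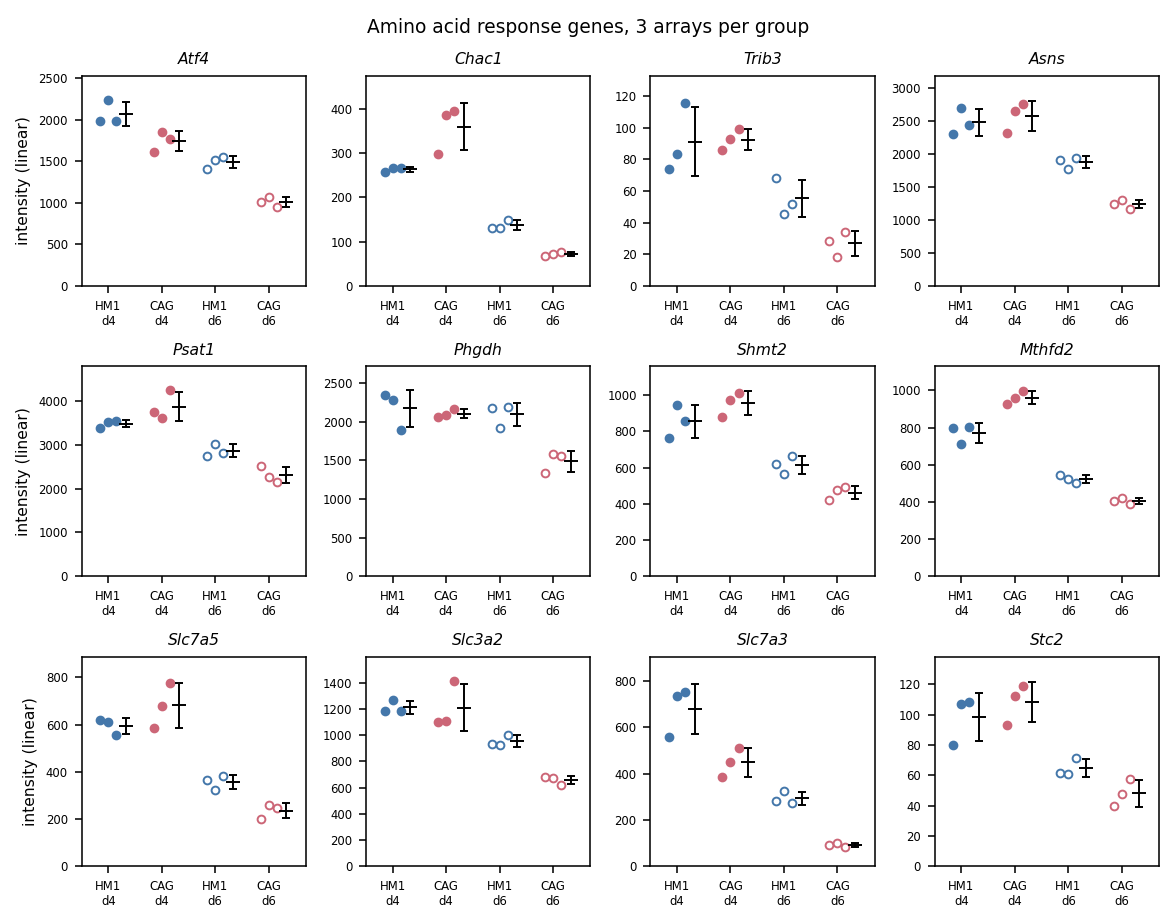
Intensities (linear axis from 0) of 12 genes of the Atf4 type and of amino acid supply on each array, with HM1 and CAG150 side by side, filled points for day 4, open points for day 6, and bars for the mean ± SD of 3 arrays. In most panels the open CAG150 points are the lowest, and Chac1 and Mthfd2 show CAG150 above HM1 at day 4 and below it at day 6.

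The genes of amino acid supply and one-carbon metabolism moved together at day 6. At that day 8 of 9 were lower in CAG150, the ninth, Stc2, was -0.34 ± 0.13, adjusted p = 0.0902, and the median was -0.49. Among all genes tested, 11.2% were lower at day 6. At day 4 only 2 of the 9 passed, Mthfd2 higher and Slc7a3 lower in CAG150, and the median was 0.12. Day 4 shares over all genes tested were 7.87% higher and 7.92% lower. Asns, which makes asparagine from aspartate and is a standard target of Atf4, read 2304, 2701 and 2429 in HM1 and 2308, 2652 and 2756 in CAG150 at day 4, with overlap (0.05 ± 0.09, adjusted p = 0.758). At day 6 it read 1907, 1775 and 1942 and 1247, 1301 and 1170.5, 1.51-fold lower in CAG150 without overlap (-0.59 ± 0.09, adjusted p = 0.000793). The serine synthesis enzymes Phgdh and Psat1 differed at day 6 too. Phgdh read 2174, 1922 and 2190.3 in HM1 and 1329, 1582 and 1548 in CAG150 (1.41-fold lower, -0.49 ± 0.10, adjusted p = 0.00485), and its other 3 probe sets gave -0.52, -0.33 and -0.29. Psat1 read 2757, 3031 and 2814 and 2527, 2266 and 2147 (-0.31 ± 0.09, adjusted p = 0.0285). Shmt2 and Mthfd2 pass one-carbon units from serine on to folate in mitochondria. Shmt2 read 618, 566 and 666 in HM1 and 420.5, 475 and 491 in CAG150 at day 6 (-0.40 ± 0.10, adjusted p = 0.0148). Mthfd2 read 797, 709.6 and 805 and 926, 959.6 and 997 at day 4, 1.24-fold higher in CAG150 (0.31 ± 0.08, adjusted p = 0.0189). At day 6 it read 545, 524 and 501 and 407, 419 and 389.8, 1.28-fold lower in CAG150 (-0.36 ± 0.08, adjusted p = 0.00722). Like those of Chac1, its groups were apart in opposite directions on the 2 days. The day 4 call of Mthfd2 was lost without HM1 day 4 replicate 2 or CAG150 day 4 replicates 2 or 3 (adjusted p 0.0554 to 0.0678). The same held with arrays centred on their medians (0.25, adjusted p = 0.0756), with the mean of its probe sets (0.25, adjusted p = 0.0778) and with only the day 4 arrays (0.31, adjusted p = 0.0623). The day 6 call of Psat1 was lost without CAG150 day 6 replicates 2 or 3 or HM1 day 6 replicates 2 or 3 (adjusted p 0.0596 to 0.114) and under 4 other settings (adjusted p 0.0529 to 0.0897). That of Shmt2 was lost without CAG150 day 6 replicate 1 or HM1 day 6 replicate 3 (adjusted p 0.0617 to 0.0625) and with the mean of its probe sets (-0.30, adjusted p = 0.0819).

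The amino acid transporters were lower in CAG150 at day 6 as well, and Slc7a3 had the largest difference of the 46 genes there. Slc7a3, a transporter of arginine and lysine on the X chromosome, read 556, 733 and 750.1 in HM1 and 386, 449 and 511 in CAG150 at day 4 (1.49-fold lower, -0.58 ± 0.13, adjusted p = 0.0114). At day 6 it read 281, 326 and 272 and 91.7, 101 and 83.1, 2.86-fold lower (-1.52 ± 0.13, adjusted p = 6.49e-06). It was the 1 gene of the 46 outside the chaperones that was lower in CAG150 at day 4. Slc7a5 (LAT1), which carries large neutral amino acids, pairs with Slc3a2 (4F2hc), its heavy chain. Slc7a5 read 619, 612 and 558 in HM1 and 587, 681 and 778 in CAG150 at day 4 with overlap. At day 6 it read 365, 322 and 381 and 199, 261 and 246 without overlap (1.49-fold lower, -0.57 ± 0.12, adjusted p = 0.00528). Slc3a2 read 1181, 1269 and 1186 and 1097, 1111 and 1414 at day 4, and 930.3, 928 and 1004 and 678, 674 and 620.5 at day 6 (1.44-fold lower, -0.53 ± 0.10, adjusted p = 0.0027). Stc2, a secreted glycoprotein induced through Atf4, read 61.6, 60.7 and 71.5 and 39.7, 47.5 and 57.3 at day 6, which did not overlap but did not pass.

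From day 4 to day 6, all 9 of these genes fell in CAG150 and 8 fell in HM1, with medians of -1.02 and -0.46. The share of all genes tested that fell was 21.9% in CAG150 and 18.5% in HM1. Slc7a3 fell 4.29-fold in CAG150 (-2.10 ± 0.13, adjusted p = 1.1e-07) and 2.24-fold in HM1 (-1.16 ± 0.13, adjusted p = 2.44e-05). Slc7a5 fell 2.77-fold in CAG150 (-1.47 ± 0.12, adjusted p = 1.13e-06) and 1.65-fold in HM1 (-0.72 ± 0.12, adjusted p = 0.000529). Mthfd2 fell 2.32-fold in CAG150 and 1.46-fold in HM1, Asns 2.06-fold and 1.32-fold, and Shmt2 2.03-fold and 1.38-fold. Phgdh fell in CAG150 (-0.50 ± 0.10, adjusted p = 0.0017) and was the gene that did not pass in HM1 (-0.05 ± 0.10, adjusted p = 0.753), where it went from 2171 ± 243 to 2095 ± 150.4. Stc2 fell in both lines, from 108 ± 13.2 to 48.1 ± 8.83 in CAG150 (-0.96 ± 0.13, adjusted p = 8.02e-05) and from 98.5 ± 15.97 to 64.6 ± 6.00 in HM1 (-0.50 ± 0.13, adjusted p = 0.00947). In HM1 the fall of Psat1 was lost without HM1 day 4 replicates 2 or 3 or HM1 day 6 replicates 1 or 3 (adjusted p 0.0595 to 0.0851) and with quantile normalization (-0.18, adjusted p = 0.151). That of Slc3a2 was lost without HM1 day 4 replicate 2 or HM1 day 6 replicates 1 or 2 (adjusted p 0.0525 to 0.0576).

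The fall was steeper in CAG150 for 4 of the 9 by the interaction, which was negative for all 9 (median -0.56). A negative interaction passed for 2.03% of all genes tested. The 4 genes are given next. These were Slc7a3 (-0.94 ± 0.19, adjusted p = 0.0169), Slc7a5 (-0.75 ± 0.17, adjusted p = 0.0314), Mthfd2 (-0.67 ± 0.11, adjusted p = 0.00602) and Asns (-0.64 ± 0.13, adjusted p = 0.0193). The interactions of Mthfd2 and Slc7a3 passed under every alternative. That of Asns was lost without CAG150 day 4 replicate 2 or CAG150 day 6 replicate 3 or HM1 day 6 replicate 3 (adjusted p 0.0503 to 0.0571). That of Slc7a5 was lost without any of 9 arrays, HM1 day 4 replicates 1, 2 or 3 or CAG150 day 4 replicates 2 or 3 or CAG150 day 6 replicates 1 or 3 or HM1 day 6 replicates 1 or 3 (adjusted p 0.0506 to 0.0737). It was also lost with no filter (-0.75, adjusted p = 0.0609) and with a pseudocount of 1 (-0.79, adjusted p = 0.0537). The count of 4 was 2 without CAG150 day 4 replicate 2, CAG150 day 6 replicate 3 or HM1 day 6 replicate 3, and 7 with a pseudocount of 64. Psat1 (-0.46 ± 0.13, adjusted p = 0.0755), Phgdh (-0.45 ± 0.15, adjusted p = 0.128), Shmt2 (-0.56 ± 0.15, adjusted p = 0.055), Slc3a2 (-0.51 ± 0.14, adjusted p = 0.0728) and Stc2 (-0.46 ± 0.19, adjusted p = 0.233) did not pass.

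**Figure D4:**
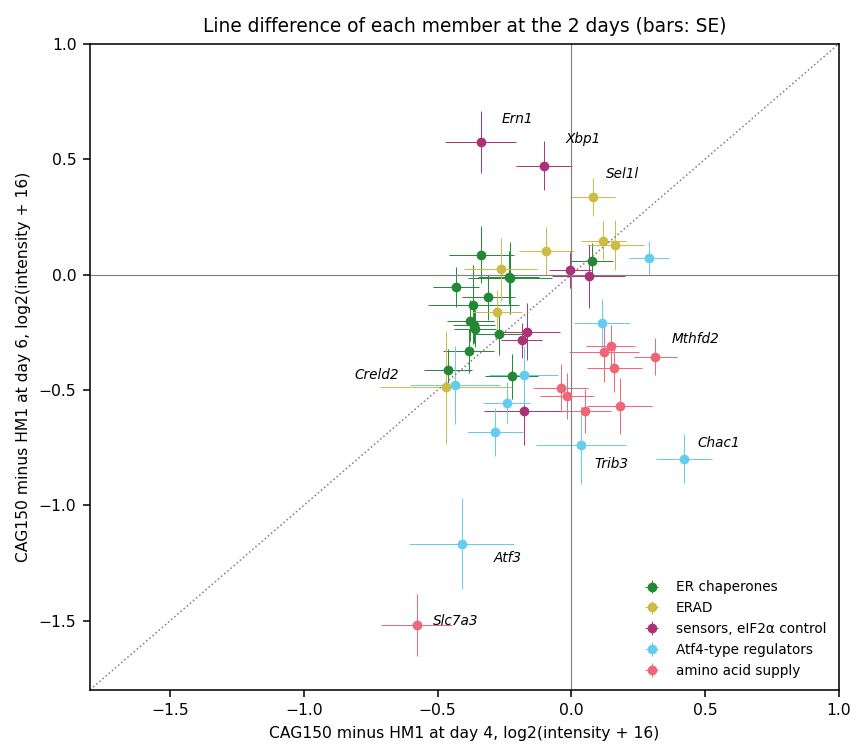
Log2 difference between CAG150 and HM1 at day 4 (x axis) and at day 6 (y axis) for each of the 46 genes, coloured by role, with bars for 1 SE; the days share no arrays. Most chaperones lie left of 0 on the x axis and near or below 0 on the y axis, and Chac1 and Mthfd2 lie to the right of 0 at day 4 and below 0 at day 6.

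Genes of the same pathways outside the 46 were taken from lists set by known function. These lists too were drawn up with earlier results of these data known, so their counts are not independent support. Of 36 other genes of the Atf4-type amino acid response, 32 could be tested. At day 4, 3 were higher and 2 lower in CAG150 (median 0.00). At day 6, 2 were higher and 18 lower, against the 10.1% and 11.2% of all genes tested given above, with a median of -0.32. The smallest adjusted p-values at day 6 were those of Cth, which makes cysteine (-1.02 ± 0.11, adjusted p = 4.56e-05) and Slc7a1, an arginine and lysine transporter (-0.73 ± 0.10, adjusted p = 0.000334). Next were Mthfd1l of mitochondrial folate metabolism (-0.49 ± 0.07, adjusted p = 0.000613) and Nars, the asparaginyl-tRNA synthetase (-0.45 ± 0.08, adjusted p = 0.00129). Over time 17 of the 32 fell in HM1 and 27 in CAG150, with none rising, and medians of -0.31 and -0.74. The share of all genes tested that fell was 18.5% in HM1 and 21.9% in CAG150, and 2.03% passed with a negative interaction. Cth read 486, 497 and 454 at day 4 and 111, 126 and 95.5 at day 6 in CAG150, a 3.93-fold fall (-1.97 ± 0.11, adjusted p = 4.97e-08). In HM1 it read 512, 442 and 565 and 223, 265 and 231 (-1.03 ± 0.11, adjusted p = 1.79e-05). Pck2, a mitochondrial enzyme of phosphoenolpyruvate synthesis, fell by 1.44 in CAG150 (adjusted p = 1.96e-06). In the interaction 5 of 32 passed, all negative: Slc7a1 (-0.99), Cth (-0.95), Gpt2 (-0.67), Jdp2 (-0.76) and Nars (-0.45), the last outside the rule of 4 named genes and named to complete the count. The day 6 count of 18 was 12 without CAG150 day 6 replicate 1, 11 without CAG150 day 6 replicate 3, 12 without HM1 day 6 replicate 3 and 12 with only the day 6 arrays. The 2 higher at day 6 were 0 without CAG150 day 6 replicate 1 or HM1 day 6 replicate 3. The 2 lower at day 4 were 0 without CAG150 day 4 replicate 1, and 1 without any other day 4 array, CAG150 day 6 replicate 1 or HM1 day 6 replicate 1. The interaction count of 5 was 3 without HM1 day 4 replicate 3, CAG150 day 4 replicates 2 or 3, CAG150 day 6 replicate 1 or HM1 day 6 replicate 1. The element TGATGNAA was in the promoter window of 11 of the 27 genes of this list that have one.

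Other ER folding and translocation genes and other genes of ER-associated degradation showed fewer differences between the lines than the other Atf4-type genes. Over all genes tested, 7.87% were higher and 7.92% lower in CAG150 at day 4, and 10.1% and 11.2% at day 6. Over time 20.4% rose and 18.5% fell in HM1, and 22.5% and 21.9% in CAG150. Counts in lists this small do not tell them apart from those shares. Of 29 folding and translocation genes tested of 31, 0 were higher and 1 lower in CAG150 at day 4, Creb3l2 (-0.58 ± 0.09, adjusted p = 0.0012), an ER-bound transcription factor. At day 6, 3 were higher and 4 lower. Spcs3 (0.43 ± 0.09, adjusted p = 0.00632) and Mbtps1 (0.40 ± 0.10, adjusted p = 0.01), both on chromosome 8, and Creld1 (0.46 ± 0.13, adjusted p = 0.0225) were the higher ones. Over time 1 rose and 9 fell in HM1 and 1 rose and 6 fell in CAG150, led by Pdia5, a disulphide isomerase (-0.57, adjusted p = 0.000373 in HM1; -0.73, adjusted p = 4.03e-05 in CAG150). Of 17 degradation genes tested of 18, 1 was higher and none lower at day 4 (Erlec1 on chromosome 11, 0.45 ± 0.09, adjusted p = 0.00668). At day 6, 1 was higher and 2 lower (Erlec1 0.41; Herpud2 -0.49; Aup1 -0.29). Of 11 genes of eIF2, eIF2B and related kinases tested of 12, 0 passed limma's test at day 4, also with an unadjusted p under 0.05. At day 6, 2 were lower in CAG150, the translation factor subunits Eif2b3 (-0.39 ± 0.09, adjusted p = 0.0102) and Eif2s2 (-0.37 ± 0.09, adjusted p = 0.0138). In these 3 lists 0 genes passed the interaction, with 6, 0 and 2 at an unadjusted p under 0.05.

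**Figure D5:**
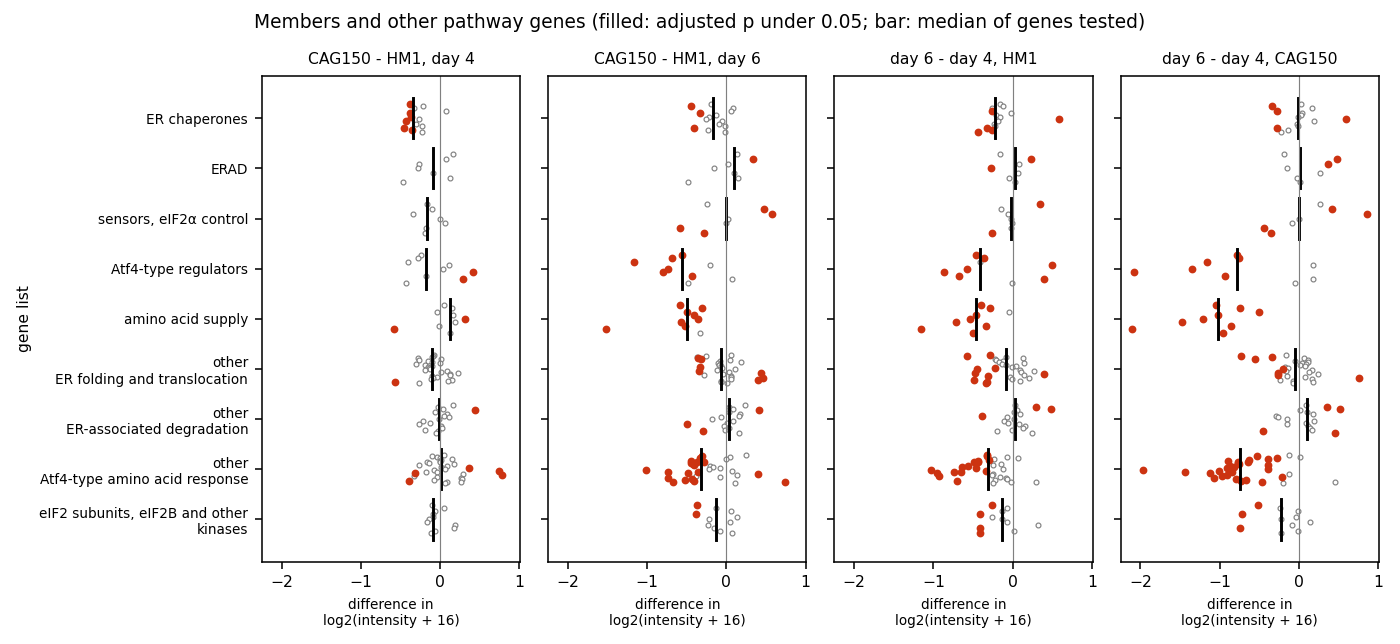
Log2 differences of single genes (points) for the 5 role groups of the 46 genes and the 4 lists of other pathway genes. The panels are the comparisons between lines and between days, without the interaction. Points are filled where the adjusted p was under 0.05, with a bar at the median of each list. At day 6 the medians of the Atf4-type regulators, the amino acid supply genes and the other Atf4-type genes are -0.56, -0.49 and -0.32, and those of the chaperones and the degradation genes are -0.17 and 0.10.

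Genes of chromosomes 8 and 11 stood higher in CAG150 as a whole. The median line difference was 0.20 for 671 genes of chromosome 8 and 0.17 for 1007 genes of chromosome 11 at day 4, and 0.24 and 0.23 at day 6, while it was -0.02 and -0.03 on the other autosomes. At day 6, 34.4% of the genes of chromosome 8 and 31.8% of those of chromosome 11 were higher, and 6.36% of those of the other autosomes. Of the 46 genes, Calr, Herpud1 and Slc7a5 are on chromosome 8 and Canx, Derl2, Ern1, Stc2 and Xbp1 on chromosome 11. Xbp1 and Ern1 are thus 2 of the 3 genes that were higher in CAG150 at day 6, and the third, Sel1l, is on chromosome 12. The part of the chromosome-wide shift in their values was not tested. Slc7a5 was lower at day 6, and the genes of its chromosome as a whole stood higher. All 6 chaperones lower at day 4 are on other chromosomes. Any part of the shift in the values of Slc7a5 and these chaperones was not tested either.

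Markers of other cell types differed between the groups as well, and their part in the values above was not tested. In bulk samples such as these, fewer cells of a type and less RNA per cell cannot be told apart. For the counts below, 7.87% of all genes tested were higher and 7.92% lower in CAG150 at day 4. At day 6 these shares were 10.1% and 11.2%. Summed over 11 pluripotent cell markers, intensities ran from 2067 to 2370.4 in HM1 and from 784 to 868 in CAG150 at day 4, and from 2401 to 2741 and 1022 to 1104 at day 6. Of these markers 8 of 11 were lower in CAG150 on each day and none was higher, among them Pou5f1, whose day 6 means were 308 ± 10.4 for HM1 and 106 ± 29.4 for CAG150. Summed over 14 neuronal markers the range was 4452 to 4688 in HM1 and 3422 to 3837 in CAG150 at day 4, and 14843 to 16902 and 21280 to 22430 at day 6. The lower day 4 sum of CAG150 came from Stmn2, picked out after its values were seen, which read 2108 ± 101 in HM1 and 607 ± 56.8 in CAG150. Without Stmn2 the day 4 sums ran from 2429 to 2531 in HM1 and from 2872 to 3174 in CAG150. Of the 14 neuronal markers 6 were higher in CAG150 at day 4 and 2 lower, with a median difference of 0.23 on the log2 scale. At day 6, 11 of the 14 were higher in CAG150 and none lower, and Tubb3 read 2064 ± 246 and 3092 ± 440.3. Neural progenitor markers summed to between 10228 and 12262 in HM1 and 12222 and 12556 in CAG150 at day 4. At day 6 they ran from 21959 to 24044 and from 23038 to 24420, where 2 of 10 were higher and 1 lower in CAG150. Counts this small do not tell the progenitor markers apart from the shares of all genes. Fibroblast and smooth muscle markers summed to between 3868 and 4435 in HM1 and 889 and 902 in CAG150 at day 4. At day 6 they ran from 5111 to 6132 and from 426 to 505, where 6 of 8 tested were lower. Acta2 read 2889.6 ± 221 and 162 ± 9.60, and Tagln 1762 ± 278 and 38.2 ± 7.39 at day 6. Endoderm markers, cells that secrete much protein, summed to between 1615 and 1826 in HM1 and 1315 and 1431 in CAG150 at day 4. At day 6 they ran from 2502 to 2830.1 and from 1190 to 1315, where 7 of 11 tested were lower in CAG150. All 11 differences were negative at day 6, with a median of -0.78. Of the defining endoderm genes, Gata4 and Gata6 were dim, and the values of Sox17 are not given here. Gata4 was at 20.6 ± 6.03 and 18.8 ± 5.72 and Gata6 at 23.1 ± 3.62 and 18.4 ± 0.360 at day 6. Afp, Ttr, Apoa1, Amn and Sox7 were below the filter.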

How the data were processed

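Expression was measured on 12 arrays, 3 for each line and day. The deposited table gives linear intensities that the authors' processing scaled so that the 2% trimmed mean is 150 on every array; its software was not given in the sources used here. From these, log2(intensity + 16) was computed. Of 45101 probe sets, 34945 carry 1 gene symbol in the platform annotation, 932 several and 9160 none, beside 64 controls; 2 probe sets that list Phgdh with another symbol were left out. Each gene took its brightest probe set, and genes below the 40th percentile of signal (log2 4.80) were left out. The 5 comparisons were contrasts of 1 limma fit (version 3.58.1, R 4.3.3; lmFit, eBayes), with Benjamini-Hochberg adjustment over 12280 genes; the script was tested on simulated data. The number of arrays limits the precision. Adjusted p-values of single probe sets are over all probe sets above the filter. The genes and lists were chosen with earlier results of these data known. All 46 genes are named, and of each other pathway list up to 4 per comparison with the smallest adjusted p. Promoters are from RefSeq (GRCm38.p6).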

Additional observations from a re-analysis of the deposited data

Results flagged for a closer look

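For 6 of the 46 genes the difference between CAG150 and HM1 changed from day 4 to day 6 by limma's test of the difference itself. The interaction, which is the line difference at day 6 minus that at day 4, was negative for 5 of them. On the log2 scale it was -1.2178 for Chac1 (adjusted p = 0.000717), -0.9397 for Slc7a3 (adjusted p = 0.0169) and -0.7525 for Slc7a5 (adjusted p = 0.0314). It was -0.6703 for Mthfd2 (adjusted p = 0.00602) and -0.6435 for Asns (adjusted p = 0.0193). For Ern1 it was positive, at 0.9142 (adjusted p = 0.0191), beside 0.20 and -0.22 with its other probe sets above the filter. No explanation was tested for any of the 6.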

How the results depend on the processing

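Of the calls on the 46 genes, 5 of 10 at day 4, 14 of 22 at day 6, 14 of 24 over time in HM1, 17 of 25 over time in CAG150 and 3 of 6 in the interaction passed under every alternative tried. Ppp1r15b over time in HM1 reversed when its probe sets were averaged, to 0.0178 (adjusted p = 0.9), since a dimmer probe set goes the other way. With a pseudocount of 64 the calls on the 46 genes were 16 at day 4 (3 higher, 13 lower) and 10 in the interaction. Without a filter 295 genes passed the interaction, beside 443. Leaving out 1 array gave 1361 to 1921 genes at day 4, 1867 to 2645 at day 6, 3903 to 4774 over time in HM1, 4651 to 5524 in CAG150 and 270 to 362 in the interaction, lowest without CAG150 day 6 replicate 3, with 295 without CAG150 day 4 replicate 2. For the 46 genes the ranges were 6 to 12, 17 to 22, 16 to 24, 21 to 25 and 4 to 7. Centring arrays on their medians put the median of all genes over time in HM1 at -0.1086 and changed the splits of higher and lower genes to 534 and 1165 at day 4, 811 and 1617 at day 6, 1750 and 3085 over time in HM1 and 1974 and 3474 in CAG150; centring on genes off chromosomes 8, 11, X and Y gave 1221 and 845 at day 4 and 2071 and 2862 over time in HM1. No pairing by replicate number was seen, but with 3 arrays in a group this check is weak and cannot exclude one. Deviations from the group means of same-numbered arrays correlated from -0.1328 to 0.1217 (median 0.0219), with 2 of 18 pairs over 0.1. For arrays with different numbers the range was -0.1634 to 0.2163 (median -0.00895), with 5 of 36 pairs over 0.1. With the replicate block 1867, 2547, 4710 and 5425 genes passed at day 4, at day 6, over time in HM1 and in CAG150, and 396 in the interaction, and 10, 24, 22, 25 and 7 of the 46 genes. Causes of these shifts were not tested. Dim genes such as Derl3 and Nupr1 lie close to the filter, which limits what their differences can show.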
